A study of Mus musculus with 8 samples.

Results

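The interferon-inducible GTPases examined here were the 6 guanylate-binding proteins (GBPs) carried on the array as Gbp1, Gbp2, Gbp3, Gbp4, Gbp5 and Gbp6, and 4 immunity-related GTPases (IRGs), carried as Igtp, Iigp1, Iigp2 and Tgtp. They were chosen by symbol, and all 10 were found among the 18138 gene symbols of the array, as 14 of its 25697 probes. RNA came from bone marrow cells of female C57BL/6J mice, 8 weeks old, which were cultured with GM-CSF at 10 ng/ml for 7 days to give macrophages. There were 4 groups of 2 Illumina bead arrays, namely unstimulated and M1 cells from WT mice and unstimulated and M1 cells from iNOS-/- mice. M1 cells had received LPS at 200 ng/ml and IFN-γ at 10 ng/ml for 6 h, and the unstimulated cells had received GM-CSF only. The iNOS-/- mice lack a functional inducible nitric oxide synthase in every cell, and the mice of the methods are B6.129P2-Nos2tm1Lau/J, a targeted allele on a C57BL/6 background. The labels do not say whether the arrays of a group came from separate mice or cultures, so the p-values measure only the spread between these arrays, which may be technical.

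GBPs and IRGs are large GTPases that are scarce in resting macrophages and are made in quantity after interferon. IFN-γ acts through JAK kinases and a DNA element called GAS, and both interferon types act through an element called ISRE, which is read by IRF factors among others. The proteins then gather on the vacuoles that enclose intracellular bacteria and parasites. GBPs open such vacuoles and the bacterial surface to cytosolic sensors, including caspase-11. Among the IRGs, effectors such as Tgtp (Irgb6) and Iigp1 (Irga6) coat the vacuole, whereas regulators such as Igtp (Irgm3) and Iigp2 (Irgm2) stay on the membranes of the cell and keep the effectors inactive there.

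The array's symbols are old. By gene identifier, Gbp1 is RefSeq's Gbp2b, Gbp6 is Gbp7, Iigp2 is Irgm2 and Tgtp is Tgtp1. The 5 genes Gbp1, Gbp2, Gbp3, Gbp5 and Gbp6 lie in 1 cluster on chromosome 3, from the start of Gbp5 at 142496934 to the end of Gbp2 at 142638008 in GRCm38.p6. Gbp4 lies on chromosome 5 at 105115767 to 105139586. Igtp, at 58199556 to 58207592, and Iigp2, at 58214977 to 58222783, are neighbours on chromosome 11. Tgtp, at 48985329 to 48992246, is on the same chromosome, and Iigp1 is on chromosome 18.

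The promoters of 8 of the 10 genes were in the RefSeq promoter table, as 9 windows of 250 bases before to 50 bases after an annotated start (GRCm38.p6). They were searched on both strands for GAS (TTCNNNGAA) and for the ISRE core, which is GAAA, 2 bases of any kind and GAAA again, with overlapping matches kept. The ISRE core was present in 8 of 8 genes and in 3.44% of all 32851 promoters. GAS was present in 5 of 8 genes and in 8.3% of all promoters, and both were present in those 5 genes and in 0.454% of all promoters. The members were chosen as interferon-inducible genes, and these shares describe them without a test. The 6 windows below are shown because they belong to members of both families whose values are given in the results. Each is the 250 bases before the start on the strand of the gene, with GAS and ISRE matches in capitals.

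Igtp, chr11:58199306-58199555, plus strand: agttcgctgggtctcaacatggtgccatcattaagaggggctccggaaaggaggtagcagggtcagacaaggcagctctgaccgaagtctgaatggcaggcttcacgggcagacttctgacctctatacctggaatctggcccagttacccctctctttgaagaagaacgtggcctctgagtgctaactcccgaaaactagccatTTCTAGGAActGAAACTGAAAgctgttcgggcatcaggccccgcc
Iigp2 (Irgm2), chr11:58214727-58214976, plus strand: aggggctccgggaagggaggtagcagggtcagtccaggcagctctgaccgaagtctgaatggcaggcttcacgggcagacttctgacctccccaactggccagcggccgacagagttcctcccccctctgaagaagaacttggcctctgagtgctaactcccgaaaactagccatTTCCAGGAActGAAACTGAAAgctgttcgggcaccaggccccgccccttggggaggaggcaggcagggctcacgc
Tgtp (Tgtp1), chr11:48992247-48992496, minus strand: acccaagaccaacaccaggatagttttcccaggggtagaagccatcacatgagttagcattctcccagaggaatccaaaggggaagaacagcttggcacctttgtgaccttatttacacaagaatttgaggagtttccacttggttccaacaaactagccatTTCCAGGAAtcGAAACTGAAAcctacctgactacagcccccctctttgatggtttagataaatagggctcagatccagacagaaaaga
Gbp5, chr3:142496684-142496933, plus strand: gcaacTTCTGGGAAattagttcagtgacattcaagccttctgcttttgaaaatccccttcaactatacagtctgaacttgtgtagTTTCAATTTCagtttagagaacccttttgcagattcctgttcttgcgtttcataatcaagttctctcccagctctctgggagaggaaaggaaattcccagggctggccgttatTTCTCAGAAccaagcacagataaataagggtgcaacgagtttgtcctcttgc
Gbp2, chr3:142620413-142620662, plus strand: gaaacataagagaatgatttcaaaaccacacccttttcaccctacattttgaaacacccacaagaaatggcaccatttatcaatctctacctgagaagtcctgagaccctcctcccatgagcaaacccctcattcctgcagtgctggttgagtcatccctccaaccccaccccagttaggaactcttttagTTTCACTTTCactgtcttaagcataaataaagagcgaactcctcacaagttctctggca
Gbp1 (Gbp2b), chr3:142594597-142594846, plus strand: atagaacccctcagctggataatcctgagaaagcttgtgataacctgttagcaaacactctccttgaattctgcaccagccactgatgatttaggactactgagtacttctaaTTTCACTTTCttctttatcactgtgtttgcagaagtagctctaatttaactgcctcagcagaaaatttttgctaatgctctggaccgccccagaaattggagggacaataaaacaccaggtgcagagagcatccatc

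In Igtp, Iigp2 and Tgtp a GAS match was followed, after 2 bases, by an ISRE core on the same strand. In Igtp the GAS match ran from -45 to -37 and the ISRE core from -34 to -25, counted from the start. In Iigp2 they lay at -75 to -67 and -64 to -55, and in Tgtp at -88 to -80 and -77 to -68. This spacing was noticed after the matches were seen. It was found in 5 of the 32851 promoters, or 0.0152%, and these belong to Igtp, Irgm2, Tgtp1, Tgtp2 and Gm12185. The Igtp and Iigp2 promoters are related sequences, with 55 identical bases in 1 run, and Tgtp2 is a near-identical copy of Tgtp1, so these promoters do not count as independent. In the GBP genes the ISRE core read on the other strand, where it appears as TTTC, 2 bases and TTTC, and in no GBP window did it follow GAS at that spacing. The windows of Gbp1, Gbp2 and Gbp3 held no GAS match with these letters. Irgm1 and Ifi47, IRGs outside the member list, did not hold the IRG arrangement. The Irgm1 window had 0 GAS and 2 ISRE core matches, and the Ifi47 window had 0 of either.

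**Figure D1:**
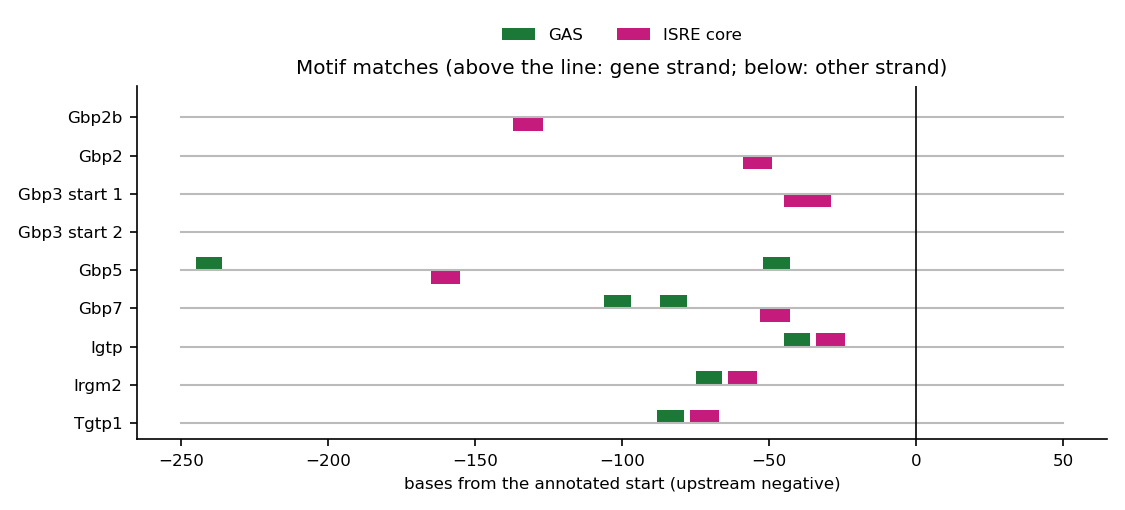
Positions of GAS (green) and ISRE core (pink) matches in the 9 promoter windows of 8 genes, by RefSeq symbol, in bases from the annotated start (vertical line); matches above a line are on the strand of the gene and those below on the other strand. The 3 IRG members at the bottom share the side-by-side arrangement, which the IRGs Irgm1 and Ifi47 (not shown) lack, and the ISRE cores of the GBP genes lie on the other strand.

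Several probes read the same gene at different places, and they were kept apart because a probe's brightness also depends on its sequence. Gbp2 had 3 probes, named here by the base at which they start in the array's transcript. The array's own annotation gives the probe at base 69 as specific to an isoform and the probe at base 2154 as common to all isoforms. Their first 30 bases of 50 are shown because the 3 probes read Gbp2 differently.

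Gbp2 start 69: ctgcagccagcctcagaggcaaagctgacc
Gbp2 start 2154: gtcacctgtgttataggtactctcggcctt
Gbp2 start 2236: ctacagatagcttctgtaatcacagaacag

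Gbp3 had probes at bases 2060 and 2304, Gbp6 had probes at bases 2639 and 2915, and the other genes had 1 probe each. Whether a probe also binds another family member could not be checked. Tgtp and its copy Tgtp2 cannot be told apart here. A probe entered the tests when its deposited detection p-value was under 0.05 on at least 2 of the 8 arrays, which 12 of the 14 member probes and 13868 of all probes passed. The Gbp4 and Iigp1 probes were detected on 0 of 8 arrays, M1 arrays included, and gave no measurement of their genes. Their GC content was 28% and 24%. Of the 671 probes on the array with a GC content of 28% or less, 13.3% were detected on any array, against 61.6% of all probes.

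Between 46.0% and 49.3% of all probes were detected on each array, and replicate arrays differed by a median of 0.16 to 0.19 on the log2 scale. Values below are log2 of scaled probe intensity, with 1 as the floor. Nos2, the targeted gene, was not detected on the unstimulated arrays of either genotype, and read 7.47 and 7.05 on the WT M1 arrays and 7.49 and 7.67 on the iNOS-/- M1 arrays (difference 0.32, SE 0.32, limma adjusted p = 0.445). Its probe starts at base 3546, and whether that lies in the deleted part is not given in the sources used here, so the probe does not check the genotype labels and the iNOS-/- groups are those labelled so. Of the 9 macrophage markers, 9 were detected in every group, and of the 9 T, B and NK cell markers none was detected on both arrays of any group. The summed intensity of the dendritic cell markers was 217 to 253 on WT unstimulated, 1545 to 1570 on WT M1, 1079 to 1145 on iNOS-/- unstimulated and 4384 to 4608 on iNOS-/- M1 arrays. The sum for the granulocyte markers ran from 1128 to 1149, 1400 to 1506, 1682 to 1748 and 3866 to 3991 in the same order. In that order 4, 6, 6 and 5 of the 9 dendritic cell markers and 3, 6, 6 and 6 of the 8 granulocyte markers were detected on both arrays, and Flt3 and Mpo were detected on no array. Between the unstimulated groups 5 of 7 tested dendritic cell markers were higher on the iNOS-/- arrays and 0 lower. Of 7 tested granulocyte markers 5 were higher and 1 lower, and of 9 macrophage markers 1 was higher and 4 lower. Of all tested genes 17.9% were called higher and 16.2% lower in this comparison. Between the M1 groups 3 of 9 macrophage markers were higher and 5 lower on the iNOS-/- arrays, 2 of 7 tested dendritic cell markers were higher and 1, Cd209a, lower, and 3 of 7 granulocyte markers were higher and none lower, against 23.7% of all tested genes called higher and 26% called lower. Cd209a was not detected on the iNOS-/- M1 arrays and had a mean of 4.97 on WT M1 arrays. In bulk RNA, fewer cells of a type and less RNA per cell cannot be told apart, and the part of these cells in the results below was not tested.

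**Figure D2:**
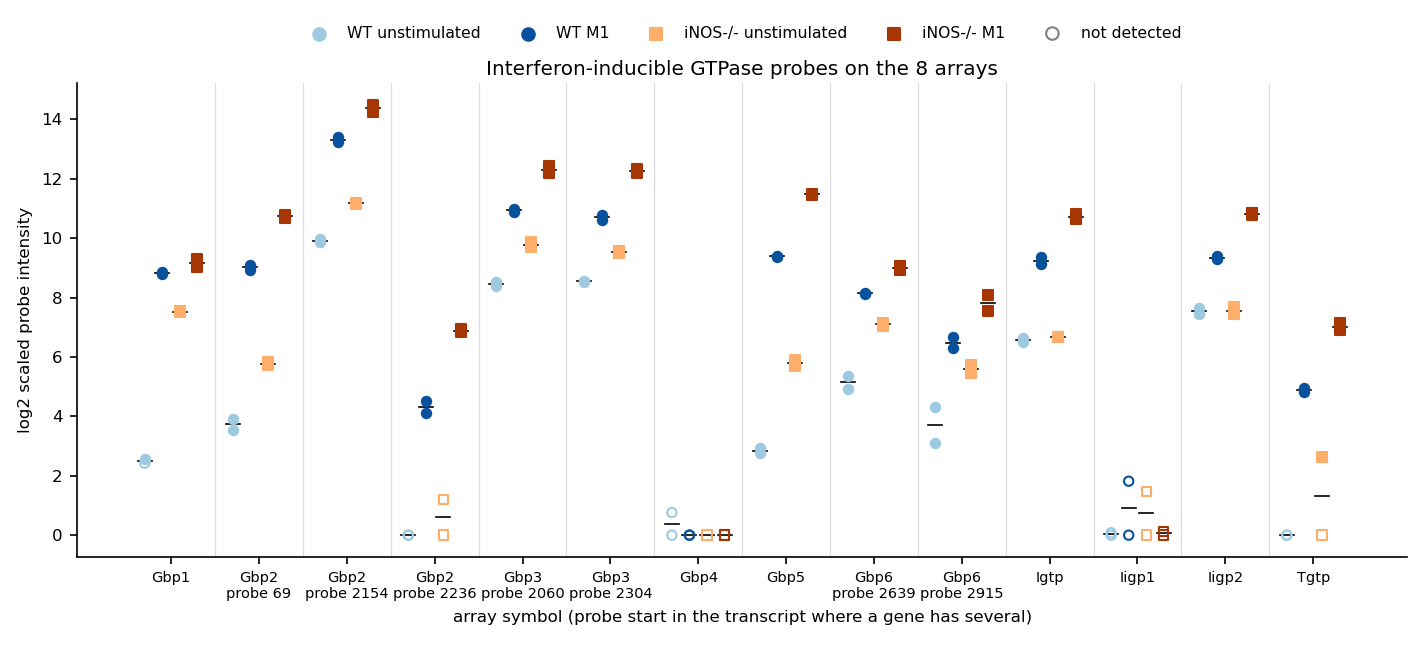
Log2 scaled intensity (y axis) of the 14 member probes (x axis) on each of the 8 arrays, with the mean of each group as a bar and undetected values as open symbols. By group mean, all 12 tested probes ran in the order WT unstimulated, iNOS-/- unstimulated, WT M1, iNOS-/- M1, and levels of different probes cannot be set against each other.

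The M1 stimulus raised every member of the GTPase list that could be measured. In WT cells, 12 of 12 tested member probes, from 8 genes, were higher on the M1 arrays than on the unstimulated arrays, against 20.8% of all tested probes called higher in this comparison. Their log2 differences ran from 1.79 for Iigp2 to 6.53 for Gbp5, with a median of 3.19 beside a median of 0.09 over all tested probes. The Gbp2 probe at base 2236 and the Tgtp probe passed the detection filter through the M1 arrays. Their direction was thus largely fixed in advance, and the count rests on the other probes.

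Gbp5, which promotes inflammasome assembly, read 2.94 and 2.76 on the WT unstimulated arrays, 9.37 and 9.40 on WT M1, 5.69 and 5.90 on iNOS-/- unstimulated, and 11.46 and 11.49 on iNOS-/- M1 arrays. The 4 groups stood apart, and the WT unstimulated arrays were close to the limit of detection, with detection p-values of 0.0113 and 0.0276. The WT response of Gbp5 was 92.7-fold (log2 6.53, SE 0.11, limma adjusted p = 1.21e-05), or 4.84 on the log2 scale with neqc, an alternative background correction and normalization that gave the lowest value.

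Gbp1, which is recruited to parasite vacuoles, read 2.42 and 2.56 on WT unstimulated, 8.78 and 8.86 on WT M1, 7.54 and 7.51 on iNOS-/- unstimulated, and 9.29 and 9.02 on iNOS-/- M1 arrays. Its unstimulated iNOS-/- arrays stood far above the WT ones and below both WT M1 arrays, with means of 7.52 and 8.82, and 1 of the 2 WT unstimulated arrays detected it. The WT response was 80.4-fold (log2 6.33, SE 0.12, limma adjusted p = 1.45e-05), but its size rests on that faint baseline, and it was 4.38 on the log2 scale with neqc, the lowest value of the alternatives.

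Gbp2, which is needed in mice for the control of Toxoplasma, was measured by 3 probes that rose together. The probe common to all isoforms read 9.96 and 9.88 on WT unstimulated, 13.22 and 13.39 on WT M1, 11.15 and 11.19 on iNOS-/- unstimulated, and 14.24 and 14.49 on iNOS-/- M1 arrays. The isoform probe read 3.54 and 3.91, 9.10 and 8.94, 5.83 and 5.71, and 10.69 and 10.79 in the same order. The groups did not overlap on either probe, and the WT response was 10.5-fold on the common probe (log2 3.39, SE 0.12) and 39.1-fold on the isoform probe (log2 5.29, SE 0.15). The probe at base 2236 was not detected on any unstimulated array and read 4.11 and 4.52 on WT M1 and 6.93 and 6.84 on iNOS-/- M1 arrays. Its response was at least 3.53-fold in WT and at least 23.7-fold in iNOS-/- cells. These bounds set the M1 mean against the lowest detected signal on the unstimulated arrays, or the probe's own value where that was higher, and with a floor of 16 the call for this probe in WT was lost (limma adjusted p = 0.173).

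Gbp3, a close relative in the same cluster, had the smallest WT response of the measured GBPs. Its probe at base 2060 read 8.40 and 8.52 on WT unstimulated, 10.90 and 10.97 on WT M1, 9.70 and 9.86 on iNOS-/- unstimulated, and 12.18 and 12.42 on iNOS-/- M1 arrays. The probe at base 2304 read 8.56 and 8.53, 10.61 and 10.79, 9.51 and 9.55, and 12.33 and 12.20 in that order. Both probes put the 4 groups in the same order without overlap, with WT responses of 5.55-fold (log2 2.47, SE 0.12) and 4.46-fold (log2 2.16, SE 0.10).

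Gbp6, the gene now called Gbp7, read 5.35 and 4.93 on WT unstimulated, 8.15 and 8.13 on WT M1, 7.15 and 7.05 on iNOS-/- unstimulated, and 9.07 and 8.93 on iNOS-/- M1 arrays with its probe at base 2639. The dimmer probe at base 2915 read 3.09 and 4.31, 6.66 and 6.30, 5.74 and 5.47, and 8.10 and 7.54. The groups stood apart on both probes, but the dimmer probe had an SD of 0.86 between the WT unstimulated arrays. The WT responses were 8.01-fold (SE 0.16 on the log2 scale) and 6.87-fold (log2 2.78, SE 0.44).

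The 3 measured IRGs also rose. Igtp, the regulator found on endoplasmic reticulum and lipid droplets, read 6.62 and 6.50 on WT unstimulated, 9.12 and 9.35 on WT M1, 6.67 and 6.67 on iNOS-/- unstimulated, and 10.81 and 10.63 on iNOS-/- M1 arrays. Iigp2, the regulator found at the Golgi, read 7.64 and 7.46, 9.38 and 9.30, 7.67 and 7.45, and 10.78 and 10.83. The unstimulated arrays of the genotypes overlapped for Iigp2 and lay side by side for Igtp, and the M1 arrays did not overlap for either gene.

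The WT response was 6.39-fold for Igtp (log2 2.68, SE 0.12, limma adjusted p = 0.000138) and 3.46-fold for Iigp2 (log2 1.79, SE 0.12, limma adjusted p = 0.000455). Tgtp, the effector that coats vacuoles, was not detected on either WT unstimulated array, and read 4.94 and 4.81 on WT M1, 2.64 and the floor on iNOS-/- unstimulated, and 6.90 and 7.14 on iNOS-/- M1 arrays. Only 1 of its 2 iNOS-/- unstimulated arrays detected it, and its WT response was at least 5.23-fold.

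In iNOS-/- cells 12 of 12 probes were again higher on the M1 arrays, against 25.2% of all tested probes, with log2 differences from 1.63 for Gbp1 to 6.28 for the Gbp2 probe at base 2236, whose unstimulated value is a floor. The median was 3.22 beside 0.00 over all tested probes. As in WT, the Gbp2 probe at base 2236 and the Tgtp probe were in the tests through the M1 arrays. Gbp5 rose 51.3-fold (log2 5.68, SE 0.11), Igtp 16.6-fold (log2 4.05, SE 0.12) and Iigp2 9.46-fold (log2 3.24, SE 0.12). Gbp1 rose 3.10-fold (log2 1.63, SE 0.12), from the high unstimulated level given above. Without iNOS-/- M1 replicate 1 or iNOS-/- unstimulated replicate 2, the Gbp6 probe at base 2915 lost its call (limma adjusted p = 0.0517 and 0.0542).

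**Figure D3:**
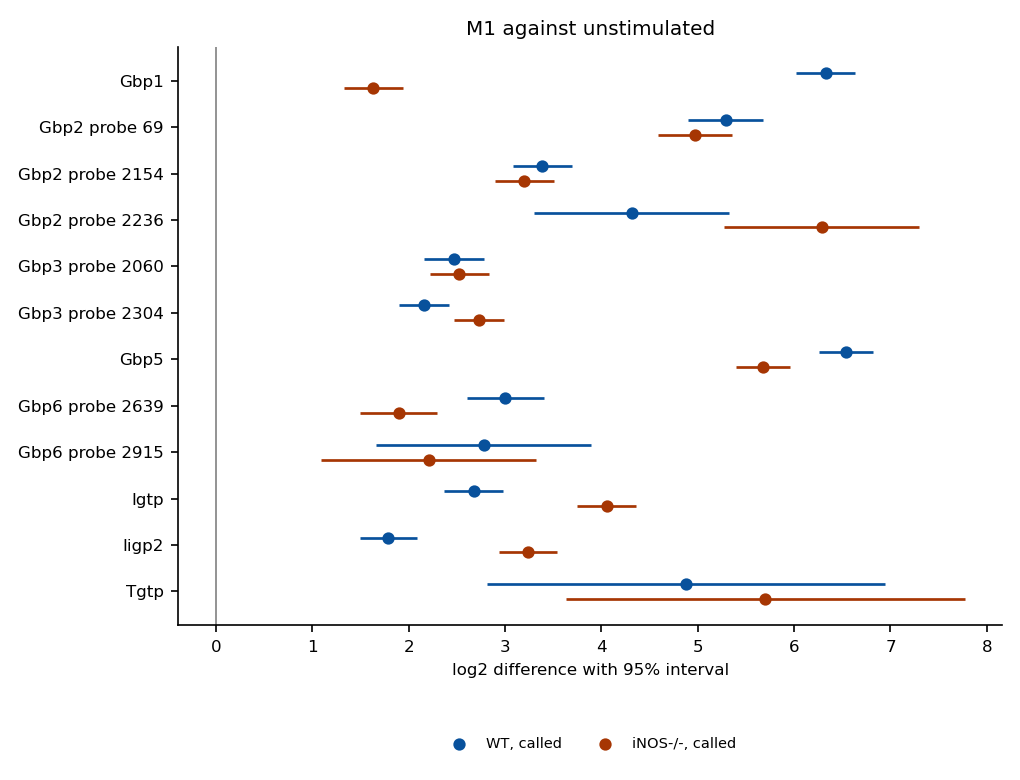
Log2 difference of M1 against unstimulated arrays (x axis) with its 95% interval from limma for the 12 tested member probes (rows), in WT (blue) and iNOS-/- cells (brown). All 24 differences were called; values of the Gbp2 probe at base 2236 in both genotypes and of Tgtp in WT rest on undetected baselines set to the floor, so their size is not measured.

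The difference between the responses was itself tested. It was called for 7 of 12 probes, against 42% of all tested probes, with 4 larger responses in iNOS-/- cells (background 19.4%) and 3 smaller ones (background 22.6%). The response of Iigp2 was larger by 1.45 (SE 0.17, limma adjusted p = 0.00233) and that of Igtp by 1.38 (SE 0.17, limma adjusted p = 0.00293), which is 2.74-fold and 2.60-fold. The response of Gbp1 was smaller, with a difference of -4.70 (SE 0.17, limma adjusted p = 0.000147). For the Gbp6 probe at base 2639 the difference was -1.10 (SE 0.22, limma adjusted p = 0.0136). These 4 calls held under every alternative tried.

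The remaining 3 called differences did not. Gbp5 had a difference of -0.85 (SE 0.16, limma adjusted p = 0.00997), which turned to 0.13 with neqc and to 0.30 with a floor of 16. The Gbp3 probe at base 2304 had a difference of 0.58 (SE 0.15, limma adjusted p = 0.0274), which turned to -0.039 with neqc and -0.064 with quantile normalization. It also lost its call with the replicate block (limma adjusted p = 0.0531) and without 6 of the 8 arrays in turn (0.0627 to 0.0884). The Gbp2 probe at base 2236 had a difference of 1.97 (limma adjusted p = 0.0403) that rests on undetected baselines in both genotypes, and 10 of 16 alternatives, the replicate block among them (limma adjusted p = 0.0619), ended its call. The common and isoform probes of Gbp2 had differences of -0.19 (95% interval -0.62 to 0.25) and -0.32 (-0.86 to 0.23), and the Gbp3 probe at base 2060 had 0.06 (-0.38 to 0.49), all uncalled. With neqc and quantile normalization, however, the common Gbp2 probe was called at -0.62 (limma adjusted p = 0.00461) and -0.64 (0.019), and the Gbp3 probe at base 2060 at -0.57 (0.0119) and -0.60 (0.0374), all smaller responses in iNOS-/- cells. The Gbp6 probe at base 2915 (-0.57) and Tgtp (0.82) were not called either, and Tgtp was called as larger with neqc (1.61, limma adjusted p = 2.57e-05), with a floor of 16 (2.14, 0.00056) and without iNOS-/- unstimulated replicate 1 (2.14, 0.00545).

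Before stimulation, the GBP genes of chromosome 3 were higher on the iNOS-/- arrays. Of the 12 probes 8 were higher and none was lower, from 5 genes, against 16.7% of all tested probes called higher and 15.4% called lower. All 8 belonged to GBPs, as 8 of 9 GBP probes, and 0 of 3 IRG probes were called. The iNOS-/- arrays lay above both WT arrays for 9 of 12 probes.

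Gbp1 had the largest difference, 32.7-fold (log2 5.03, SE 0.12, limma adjusted p = 3.41e-05), from a WT level at the limit of detection. With neqc this difference was 3.15 on the log2 scale and still called. Gbp5 was 7.71-fold higher (log2 2.95, SE 0.11, limma adjusted p = 0.000102), or 1.54 on the log2 scale with neqc, the lowest value of the alternatives. The Gbp2 isoform probe was 4.12-fold higher (log2 2.04, SE 0.15), and the common probe 2.38-fold (log2 1.25, SE 0.12). For Gbp6 the differences were 3.90-fold (log2 1.96, SE 0.16) and 3.75-fold (log2 1.91, SE 0.44). The second of these, from the probe at base 2915, lost its call without WT unstimulated replicate 1 (limma adjusted p = 0.0624) and without either iNOS-/- unstimulated replicate (0.114 and 0.0835), with the replicate block (0.0525), without the detection filter (0.0668) and in a fit of the 4 compared arrays only (0.077). Gbp3 was 2.49-fold (log2 1.32, SE 0.12) and 1.98-fold higher (log2 0.99, SE 0.10).

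Igtp differed by 0.10 (95% interval -0.20 to 0.41, limma adjusted p = 0.576) and Iigp2 by 0.01 (-0.29 to 0.31, limma adjusted p = 0.967). The intervals of both genes ended below the lower interval bound of every called GBP probe. Tgtp differed by 1.32 with an interval from -0.75 to 3.39, too wide to place it with either group, since 1 of its iNOS-/- arrays was at the floor. Without that array, iNOS-/- unstimulated replicate 2, it was called at 2.60 (limma adjusted p = 0.0029), as was the Gbp2 probe at base 2236 at 1.16 (0.0276), an unstimulated difference of undetected values. The split of GBPs from IRGs was seen in these member values and was not tested. Among the other GTPases listed below, the GBP Gbp10 differed by 0.06 (SE 1.12, limma adjusted p = 0.976), from a faint WT mean of 1.59. Of the IRGs there, Ifi47 was called higher by 0.34 (limma adjusted p = 0.0313). Irgm1 (-0.01) and Irgc1 (-0.30) were not called. The unstimulated iNOS-/- arrays stayed below both WT M1 arrays for 12 of 12 probes, with gaps between the means of 0.87 to 3.71.

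After the M1 stimulus both families were higher on the iNOS-/- arrays. The iNOS-/- M1 arrays lay above both WT M1 arrays for 12 of 12 probes, and 9 of 12, from 6 genes, were called higher and none lower, against 22.9% of all tested probes called higher and 25.3% called lower. The log2 differences ran from 0.34 to 2.57 with a median of 1.47, beside -0.03 over all tested probes. Gbp5 was 4.26-fold higher (log2 2.09, SE 0.11, limma adjusted p = 0.000235), and the Gbp2 probes were 3.31-fold (isoform), 2.09-fold (common) and 5.95-fold (base 2236) higher. The common probe was close to the top of the scale, with unscaled intensities of 17660 and 19203 on the iNOS-/- M1 arrays, on which the brightest probe read 21857 and 20853, and whether this lowers its fold was not tested. Gbp3 was 2.59-fold and 2.96-fold higher on its probes, and the Gbp6 probe at base 2639 1.81-fold.

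Igtp was 2.79-fold higher (log2 1.48, SE 0.12, limma adjusted p = 0.000601) and Iigp2 2.75-fold (log2 1.46, SE 0.12, limma adjusted p = 0.000585). The 3 uncalled probes were Gbp1 at 0.34 (95% interval 0.03 to 0.64, limma adjusted p = 0.0698), the Gbp6 probe at base 2915 at 1.34 (0.22 to 2.45, limma adjusted p = 0.0543) and Tgtp at 2.14 (0.07 to 4.21, limma adjusted p = 0.0823). These calls depended on the setting. Of 17 alternatives, 3 called Gbp1 higher, 9 the Gbp6 probe and 7 Tgtp, with limma adjusted p-values from 0.0329 to 0.269, 0.000452 to 0.198 and 8.31e-07 to 0.224.

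**Figure D4:**
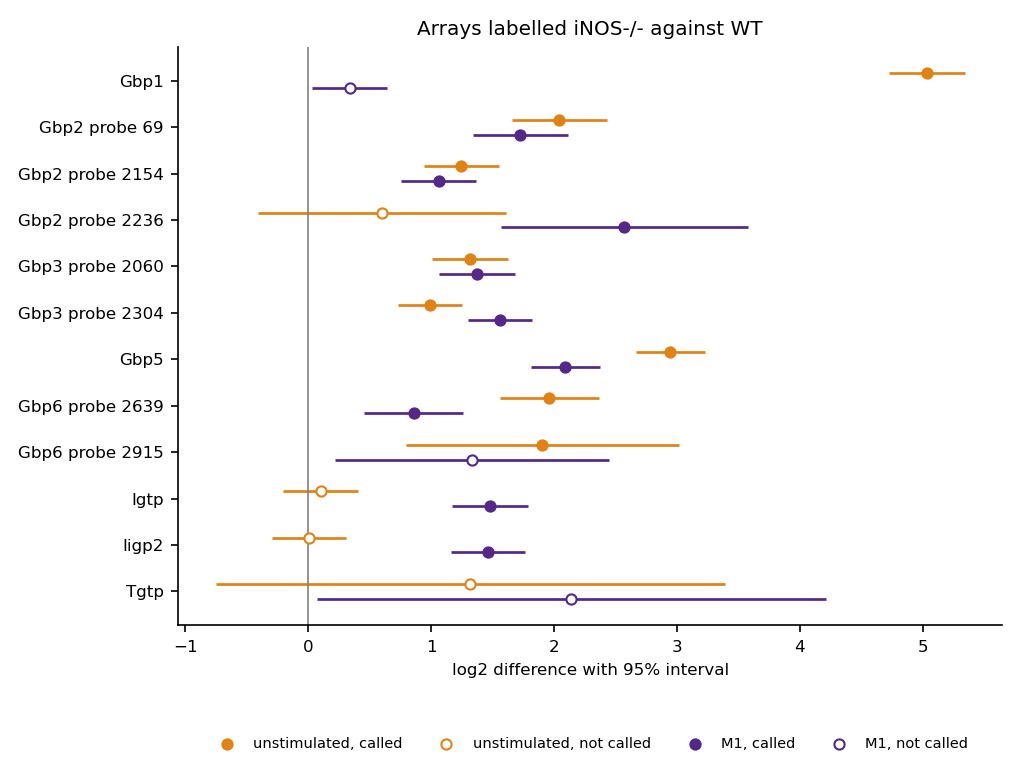
Log2 difference of iNOS-/- against WT arrays (x axis) with its 95% interval from limma for the 12 tested member probes (rows), unstimulated (orange) and M1 (purple); open symbols were not called. Igtp and Iigp2 sat at 0.10 and 0.01 before stimulation and at 1.48 and 1.46 after it, whereas Gbp1 went from 5.03 to 0.34.

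How the called probes of all genes split between higher and lower depended on the scaling. In the WT response 59.3% of called probes were higher, against 44.4% with neqc, 49.0% when the scaling line had an intercept and 47.4% with quantile normalization. With the intercept, the share rose from 47.5% to 58.4% between the M1 groups and from 46.1% to 59.7% for the difference of responses, and the median of all probes moved to 0.24 and 0.33 in these comparisons, to 0.20 for the iNOS-/- response, to -0.12 between the unstimulated groups and to -0.096 for the WT response. Quantile normalization moved the median of the iNOS-/- response to -0.13 and that of the WT response to -0.062, and neqc moved the latter to -0.035. The M1 responses and the M1 genotype differences of all 12 probes kept their direction under every scaling.

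Other GTPases of the interferon-inducible families on the array were examined as a list. Of 7 tested genes 6 were higher after M1 in WT (20.9% of all tested genes) and 7 in iNOS-/- cells (25.2%). Irgc1 was the gene not called in WT, with faint means of 3.13 unstimulated and 3.14 after M1 (limma adjusted p = 0.941). Between the M1 groups 5 of 7 were higher (23.7%) and before stimulation 3 of 7 (17.9%), with none lower. Irgm1, the third Irgm regulator, differed by -0.01 before stimulation (limma adjusted p = 0.927) and by 0.999 after it (limma adjusted p = 0.000971). Ifi47, an IRG effector also called Irgd, differed by 0.34 (limma adjusted p = 0.0313) and 1.56 (limma adjusted p = 0.000242). Gvin1, a very large inducible GTPase, differed by -0.14 (limma adjusted p = 0.609) and 0.90 (limma adjusted p = 0.0102).

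The antiviral dynamin-like GTPases were higher at both times. Mx1 was higher by 2.63 before stimulation (limma adjusted p = 0.00368) and by 1.74 after it (limma adjusted p = 0.00882), and Mx2 by 0.89 (limma adjusted p = 0.00227) and 1.54 (limma adjusted p = 0.000293). The response difference was called in 4 of 7 genes, all larger in iNOS-/- cells (20.1% of all genes), with 1.01 for Irgm1, 1.22 for Ifi47, 1.04 for Gvin1 and 0.66 for Mx2, against -0.88 for Mx1 (limma adjusted p = 0.186). Of 6 tested dynamin-family GTPases not known to be interferon-inducible, 2 rose in WT (20.9% of all tested genes) and 2 in iNOS-/- cells (25.2%). Between the M1 groups 1 of them was higher (23.7%), Atl3, an atlastin of the endoplasmic reticulum, with a limma adjusted p of 0.000209.

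The IFN-γ pathway that acts on these genes was also measured. Of 12 tested signalling genes 7 rose in WT cells and none fell, against 20.9% and 15.5% of all tested genes. In iNOS-/- cells 10 rose and 1 fell, against 25.2% and 26.8% of all tested genes, and between the M1 groups 10 were higher and 1 lower, against 23.7% and 26%. Irf1, which binds ISRE and IRF elements, was lower at baseline, with -0.99 (limma adjusted p = 0.00224), and higher after M1, with 1.42 (limma adjusted p = 0.000467), so that its response differed by 2.41 (limma adjusted p = 0.00047).

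Jak2, a kinase of the IFN-γ receptor, was higher by 2.78 before stimulation (limma adjusted p = 0.000138) and by 1.36 after it (limma adjusted p = 0.000669), and its response was smaller, with -1.42 (limma adjusted p = 0.00234). Jak1, the other JAK kinase listed, was lower before stimulation, with -0.78 (limma adjusted p = 0.033), and higher after it, with 0.66 (limma adjusted p = 0.0395). The response of Jak1 was larger by 1.45 (limma adjusted p = 0.0114). Ifngr1, the ligand-binding receptor chain, differed by 0.27 before stimulation (limma adjusted p = 0.128) and by -2.18 after it (limma adjusted p = 0.000209). In the unstimulated comparison 5 of the 12 genes were higher and 2 lower, against 17.9% and 16.2%, and the response difference was called in 7 as larger and 2 as smaller, against 20.1% and 23.6%. Ifng itself was not detected on both arrays of any group.

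**Figure D5:**
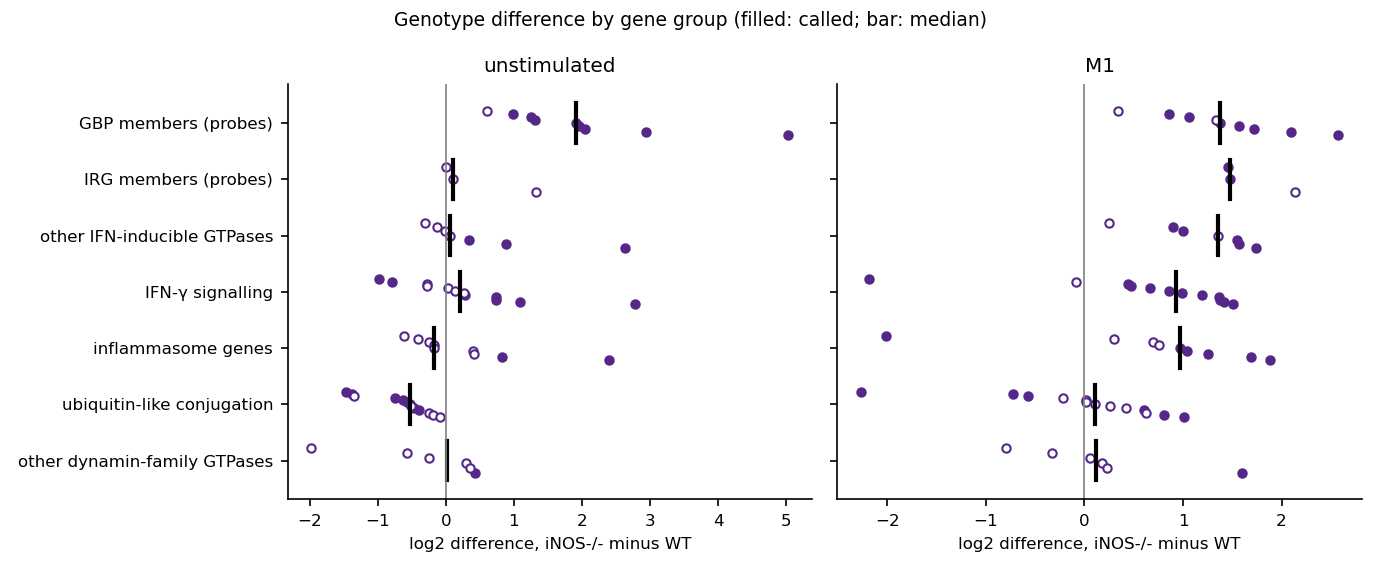
Log2 difference of iNOS-/- against WT (x axis) in unstimulated (left) and M1 cells (right) for member probes and for genes of 5 lists (rows); filled points were called, open points were not, and bars are medians. Before stimulation the median was 1.91 for the GBP member probes and 0.10 for the IRG member probes, and after M1 1.37 and 1.48.

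The member probes varied together across the arrays. Pearson's r between them over the 8 arrays, which share the group structure, ran from 0.705 to 0.998 over 66 pairs with a median of 0.96. Gbp1 had the lowest correlation with the mean member profile, at 0.88. Among all other tested probes, those most like that profile read Cd40, a costimulatory receptor (r = 0.999), Icam1, an adhesion molecule (0.998), Col4a2, a basement membrane collagen (0.998), Oas2, an antiviral enzyme (0.997), and Upp1, uridine phosphorylase (0.997).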

How the data were processed

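Groups and replicate numbers came from the labels, and all 8 arrays were used. The array is a MouseRef-8 in the series design text but a MouseWG-8 in the methods. The submitters' processing notes name GenomeStudio and limma 3.14.4. The authors deposited the bead-averaged intensity of each probe, not normalized between arrays, and a detection p-value. The file header names an analysis without background subtraction, yet 25.2% to 27.2% of intensities per array lie below 0, so none was subtracted here. By their names, 0 value columns stayed without a sample.

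Each array was scaled by a robust line through the origin over rank-invariant probes (MASS 7.3.60.0.1, factors 0.813 to 1.30), values under 1 were set to 1 and log2 was taken. The methods name rank-invariant scaling too, but set only negative values to 1, after background subtraction. A model of the 4 groups was fitted to the 13868 probes detected on 2 or more arrays with limma 3.58.1 in R 4.3.3 (lmFit, eBayes), and Benjamini-Hochberg adjusted p-values under 0.05 were called. The step was run on simulated data with known changes and independent noise, which checks the code and not the results. Alternatives were other scalings, floors and filters, other fits, a 2-fold minimum, and each array left out in turn. A listed gene with several probes was given by its brightest. The members, the lists and the rule for named genes (every member probe, the largest differences of each list, Irf1, Mx1, Mx2, and the 5 probes most like the members) were chosen with earlier results of these data known. 1 gene of the signalling list is not reported here. The number of arrays limits the precision.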

Additional observations from a re-analysis of the deposited data

Results flagged for a closer look

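The response to the M1 stimulus differed between the genotypes, by the test of that difference over all probes, for 7 of the 12 measured GTPase probes (limma, Benjamini-Hochberg adjusted). On the log2 scale, as the iNOS-/- response minus the WT response, the values were -4.70 for Gbp1, -1.10 for the Gbp6 probe at base 2639 and -0.85 for Gbp5, all smaller in iNOS-/- cells. They were 1.45 for Iigp2, 1.38 for Igtp, 0.58 for the Gbp3 probe at base 2304 and 1.97 for the Gbp2 probe at base 2236, all larger. The last of these compares responses from baselines that were not detected in either genotype. Under some alternatives this Gbp2 probe, Gbp5 and the Gbp3 probe lost their calls, and for Gbp5 and the Gbp3 probe the sign turned under some. Over all probes 42% were called for this difference, so a call alone does not set the GTPases apart. In Gbp1 the smaller response went with an unstimulated iNOS-/- level of 7.52 against 2.49 in WT, and in Igtp the larger response went with unstimulated levels of 6.67 and 6.56.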

How the results depend on the processing

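The count of called member probes stayed within 1.5 times the reported one under every alternative, from 11 to 12 for both M1 responses, 8 to 12 between the M1 groups (reported 9), 7 to 9 between the unstimulated groups (reported 8) and 5 to 8 for the difference of responses (reported 7). Leaving out 1 array at a time gave 12, 11 to 12, 9 to 10, 7 to 9 and 5 to 7 in that order. With the replicate number as a block the counts were 12, 12, 9, 7 and 5. The labels do not say whether equal numbers pair the arrays. Replicate deviations of the groups correlated between -0.0375 and 0.0247, so no shared deviation was seen, which does not settle the pairing. The difference of responses turned sign for these probes. Under neqc it was 0.16 for the Gbp2 isoform probe, -0.57 and -0.039 for the Gbp3 probes at bases 2060 and 2304, 0.13 for Gbp5 and 0.20 for the Gbp6 probe at base 2915. Under quantile normalization it was -0.60 and -0.064 for the Gbp3 probes. With an intercept in the line it was 0.012 for the Gbp2 isoform probe and -0.025 for Gbp3 at base 2060, and with a floor of 16 it was 0.30 for Gbp5. Leaving out single arrays gave -0.065 to 0.17 for Gbp3 at base 2060, -1.15 to 0.067 for Gbp6 at base 2915 and -0.47 to 2.14 for Tgtp, with the lowest Tgtp value without iNOS-/- unstimulated replicate 2. The unstimulated difference of Iigp2 was -0.014 under neqc, -0.015 under quantile normalization and -0.11 to 0.13 without single arrays. The cause was not tested. Levels near the limit of detection (Gbp1, Gbp5 and Tgtp in unstimulated WT cells) fix their folds only loosely.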

Other observations

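Genes that act downstream of the GBPs in inflammasome signalling were listed too, and 9 were tested. In WT cells 4 rose after the M1 stimulus and none fell, against 20.9% and 15.5% of all tested genes, and in iNOS-/- cells 7 rose and 1 fell, against 25.2% and 26.8%. Between the M1 groups 5 were higher and 1 lower, against 23.7% and 26%. Before stimulation 2 of the 9 were higher, a share near the 17.9% over all genes, and these were Il1b at 2.40 (limma adjusted p = 0.000204) and Il18 at 0.82 (limma adjusted p = 0.0493). Casp4, the array's symbol for caspase-11, which senses cytosolic LPS, differed by -0.24 before stimulation (limma adjusted p = 0.111) and by 1.89 after it (limma adjusted p = 0.000206), with a response larger by 2.13 (limma adjusted p = 0.00047). Pycard, the adaptor ASC, was lower after M1, with -2.01 (limma adjusted p = 0.00057).

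The ubiquitin-like conjugation genes, whose products direct GBPs and IRGs to vacuoles, gave 13 tested genes. In WT cells none rose and 7 fell after M1 (15.5% of all tested genes were called lower), among them Map1lc3b at -1.26 (limma adjusted p = 0.00236) and Atg12 at -1.25 (limma adjusted p = 0.00508). In iNOS-/- cells 4 rose and 3 fell, shares near those of all tested genes (25.2% and 26.8%). Before stimulation 0 were higher and 8 lower on the iNOS-/- arrays, against 17.9% and 16.2%, with Gabarapl1 at -1.46 (limma adjusted p = 0.000947). After M1 3 were higher and 3 lower, again near the shares over all genes (23.7% and 26%), including Sqstm1, an autophagy receptor, at 1.01 (limma adjusted p = 0.000542) and Atg7 at -2.26 (limma adjusted p = 0.00323). The median differences were -0.53 before stimulation and 0.11 after it, beside 0.00 and -0.03 over all tested genes.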
